A study of Mus musculus with 2 samples.

Results

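De novo lipogenesis builds fatty acids from the carbon of sugars in the cytosol of the hepatocyte. SREBP-1c, which insulin activates, and ChREBP, which responds to carbohydrate, drive the genes of the pathway. Citrate is split to acetyl-CoA, carboxylated to malonyl-CoA and condensed to palmitate, which is then elongated, desaturated and esterified to triglyceride. The pathway was represented here by 10 of the 32285 genes listed in each library, taken by symbol: Srebf1 (SREBP-1), Mlxipl (ChREBP), Acly, Acaca, Acacb, Fasn, Elovl6, Scd1, Me1 and Thrsp.

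Their transcripts were counted in droplet-based single-cell libraries of livers from male mice on the C57BL6 background, with 1 library per group. The WT group carries the genotype label CTRL and was made from liver. The N-LKO group carried floxed NgBR alleles (NgBR loxP/loxP) deleted by albumin-Cre, which acts in hepatocytes, and was made from liver plus tumor, with tumor cells added to the mix of hepatocytes and nonparenchymal cells. NgBR, encoded by Nus1, is a subunit of the cis-prenyltransferase that makes dolichol. Both groups had been on the fat-rich diet for 16 weeks, which the sample titles call HFD and the treatment labels call WD. Genotype, tumor tissue and library cannot be told apart, no difference has a replicate check, and no test across samples was possible. Intervals are exact 95% intervals that cover counting error only.

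The WT library held 85522287 unique molecular identifiers (UMIs, each 1 captured transcript) and the N-LKO library 87575064, and filtering left 18433 and 19850 cells. Cells were grouped into 23 clusters, and clusters were named "X-like" from marker genes, with 1593 WT and 3801 N-LKO cells left in clusters of mixed markers. None of the 10 genes was among the 2000 variable genes on which the clusters were built. Hepatocyte-like cells numbered 9954 in WT and 4152 in N-LKO, with a median of 1519 and 1784 UMIs per cell. Levels are given as CPM, the UMIs of a gene summed over the cells of a class and scaled to a common total. Because 3′ ends were counted, levels were compared between cells and not between genes. Nus1 stood at 73 CPM in WT against 34.3 CPM in N-LKO hepatocyte-like cells (log2 ratio -1.09, -1.28 to -0.91). Its tags may lie outside the deleted part of the gene. Of 100171 WT and 90147 N-LKO barcodes, 2499 had the same sequence in both libraries, as did 122 of the cells kept.

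The promoters of the 3 genes with the lowest ratios in the nuclear RNA-rich cells described later are shown first. They were chosen after those values were seen. They come from RefSeq on GRCm38.p6, read 5′ to 3′ on the gene's strand, and run from 250 bases before the start of the transcript to 50 after it. Capitals mark the CCAAT box, the element bound by NF-Y, on either strand (CCAAT or ATTGG).
Fasn, chr11:120824498-120824797, minus strand: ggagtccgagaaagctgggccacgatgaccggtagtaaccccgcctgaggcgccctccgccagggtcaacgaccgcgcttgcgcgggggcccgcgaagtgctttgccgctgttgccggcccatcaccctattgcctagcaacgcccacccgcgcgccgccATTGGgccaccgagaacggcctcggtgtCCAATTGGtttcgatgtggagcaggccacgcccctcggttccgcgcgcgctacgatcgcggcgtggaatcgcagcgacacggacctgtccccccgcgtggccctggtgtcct
Acly, chr11:100527951-100528250, minus strand: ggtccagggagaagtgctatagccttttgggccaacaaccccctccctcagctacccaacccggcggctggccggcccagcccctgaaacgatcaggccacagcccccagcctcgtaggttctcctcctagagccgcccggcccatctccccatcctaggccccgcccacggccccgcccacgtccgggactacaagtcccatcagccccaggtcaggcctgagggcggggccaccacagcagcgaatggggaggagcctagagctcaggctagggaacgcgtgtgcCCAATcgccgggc
Thrsp, chr7:97417501-97417800, minus strand: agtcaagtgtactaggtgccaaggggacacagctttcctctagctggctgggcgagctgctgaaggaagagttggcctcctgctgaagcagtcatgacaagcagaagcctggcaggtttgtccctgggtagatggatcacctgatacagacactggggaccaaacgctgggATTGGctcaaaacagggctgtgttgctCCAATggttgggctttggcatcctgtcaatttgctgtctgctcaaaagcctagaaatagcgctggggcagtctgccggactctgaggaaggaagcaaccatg
The Fasn window holds 3 such boxes, of which 1 on each strand overlap, the Thrsp window holds 2 and the Acly window 1, downstream of the start. Over the 10 genes, 9 had at least 1 window in the table, 13 windows in all, and Scd1 was not in it. A CCAAT box was present in 8 of the 13 windows (61.5%), which belong to 7 genes, against 37.4% of all 32851 windows of the same length. The E-box CACGTG, to which ChREBP and USF factors can bind, was found in 1 window, of Mlxipl (7.15% of all windows). The core CACNCCA of a sterol response element was found in 2 windows, both of Mlxipl (18.4% of all windows). All were searched on both strands. These are matches of letters, and a window without a match says nothing of binding elsewhere.

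Over all hepatocyte-like cells, most lipogenic transcripts were lower in the N-LKO library. Of the 10 genes, 5 were at least 2-fold lower, against 2.41% of the 10611 genes with at least 5 CPM in either library, and 0 were at least 2-fold higher, against 21.9% of those genes. The interval of the ratio lay below 0 for 7 genes (18.2% of all genes) and above 0 for 2 (55.5% of all genes). The median log2 ratio of N-LKO over WT was -1.03 for the 10 genes and 0.39 for all genes. When ratios were centered on that all-gene median, 6.68% of all genes were 2-fold lower and 11% were 2-fold higher. All 10 genes passed the 5 CPM filter.

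The transcription factors went in opposite directions in this pool. Srebf1 (ENSMUSG00000020538, chromosome 11, 60199089 to 60222581, minus strand) was at 170.2 CPM in WT against 48.1 CPM in N-LKO (log2 ratio -1.82, -1.98 to -1.67). Mlxipl (ENSMUSG00000005373, chromosome 5, 135089890 to 135138382, plus strand) was at 177 CPM and 296 CPM (log2 ratio 0.75, 0.67 to 0.82). Srebf1 ranked 69 from the lowest among the 10611 genes, and Mlxipl ranked 7129. Positions of the 10 genes are those of GENCODE M21 on GRCm38.

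The enzymes that deliver and carboxylate acetyl-CoA also parted. Acly (ENSMUSG00000020917, chromosome 11, 100476353 to 100528000, minus strand), ATP citrate lyase, was at 338 CPM in WT against 82.5 CPM in N-LKO, 4.09-fold lower. Acaca (ENSMUSG00000020532, chromosome 11, 84129672 to 84401651, plus strand), the cytosolic acetyl-CoA carboxylase, was at 364 and 372 CPM (log2 ratio 0.03, -0.03 to 0.09). Acacb (ENSMUSG00000042010, chromosome 5, 114146535 to 114250761, plus strand), whose malonyl-CoA restrains the entry of fatty acids into mitochondria, was at 25.6 and 35.9 CPM (log2 ratio 0.49, 0.27 to 0.70). Only Acly of these was lower in the pool.

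Fatty acid synthase had the lowest ratio of the group. Fasn (ENSMUSG00000025153, chromosome 11, 120805846 to 120824547, minus strand) gave 7149 UMIs or 426 CPM in WT and 638 UMIs or 74.1 CPM in N-LKO, 5.74-fold lower, and ranked 34 from the lowest of 10611 genes. Elovl6 (ENSMUSG00000041220, chromosome 3, 129532355 to 129638495, plus strand), which extends palmitate to stearate, was at 236 and 125 CPM (log2 ratio -0.91, -1.01 to -0.81). Scd1 (ENSMUSG00000037071, chromosome 19, 44394455 to 44407879, minus strand), the desaturase that makes oleate, was at 12963 and 5836 CPM, 2.22-fold lower. All 3 were lower in the N-LKO pool. Other enzymes of elongation, chosen here after their values were seen, went both ways. Elovl2 (log2 ratio -1.31), Elovl3 (-2.86) and Elovl5 (-1.01) had intervals below 0, and that of Elovl1 (0.19) included 0. Hsd17b12 (0.43), Hacd2 (0.79) and Hacd3 (0.51) had intervals above 0, as did 55.5% of all genes, and that of Tecr (0.05) included 0. In the Malat1-rich and Malat1-intermediate cells described later, Elovl1 was at 3.91 and 0.44. Its whole pool held 217 UMIs in WT and 127 in N-LKO. Hsd17b12 was at 0.19 and 0.04 in those states and Hacd2 at -0.07 and -0.14. Hacd3 was at 0.17 and -0.13 there, and Tecr at -0.48 and 0.47.

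The accessory genes were lower too. Me1 (ENSMUSG00000032418, chromosome 9, 86581371 to 86695953, minus strand), malic enzyme, which supplies NADPH, was at 348 CPM in WT against 187 CPM in N-LKO (log2 ratio -0.90, -0.98 to -0.82). Thrsp (ENSMUSG00000035686, chromosome 7, 97412938 to 97417730, minus strand), which encodes Spot 14, a small protein of lipogenic tissues, was at 455 and 133 CPM, 3.42-fold lower.

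The hepatocyte-like pool did not hold the same kinds of barcodes in both libraries. Malat1, a nuclear RNA, divided its 6 clusters. Clusters 6 and 17 were over 2 times the Malat1 level of the median hepatocyte-like cluster (Malat1-rich), cluster 9 was under that level divided by 2 (Malat1-poor), and clusters 0, 5 and 20 lay between (Malat1-intermediate). Malat1-rich cells made up 3.34% (2.99 to 3.71) of the WT hepatocyte-like cells and 49.7% (48.2 to 51.3) of those of N-LKO. Malat1-intermediate cells made up 84.4% of WT and 49.7% of N-LKO, and Malat1-poor cells made up 12.2% of WT and 0.554% of N-LKO. The libraries barely shared a cluster. Cluster 0 held 8152 WT and 68 N-LKO cells, cluster 5 held 104 and 1993, cluster 6 held 1 and 2060, cluster 9 held 1219 and 23, cluster 17 held 331 and 5, and cluster 20 held 147 and 3. Cluster 6 met the hepatocyte naming rule narrowly, with a score of 0.125 against a minimum of 0.1 and 3 of the 12 markers raised. Its Alb level was 4149.7 CPM, against 7672 CPM in WT cluster 17. Summed over the 12 hepatocyte markers, N-LKO Malat1-rich cells reached 18156 CPM. The highest N-LKO class outside hepatocyte-like cells, neutrophil-like, reached 18209.6 CPM. WT Malat1-rich cells reached 35306 CPM, against 37205 CPM for the highest such WT class, erythroid-like (51 cells). By these markers the Malat1-rich state did not stand above every other class in either library. Malat1-intermediate cells did (WT 66694 CPM, N-LKO 68561 CPM).

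**Figure D1:**
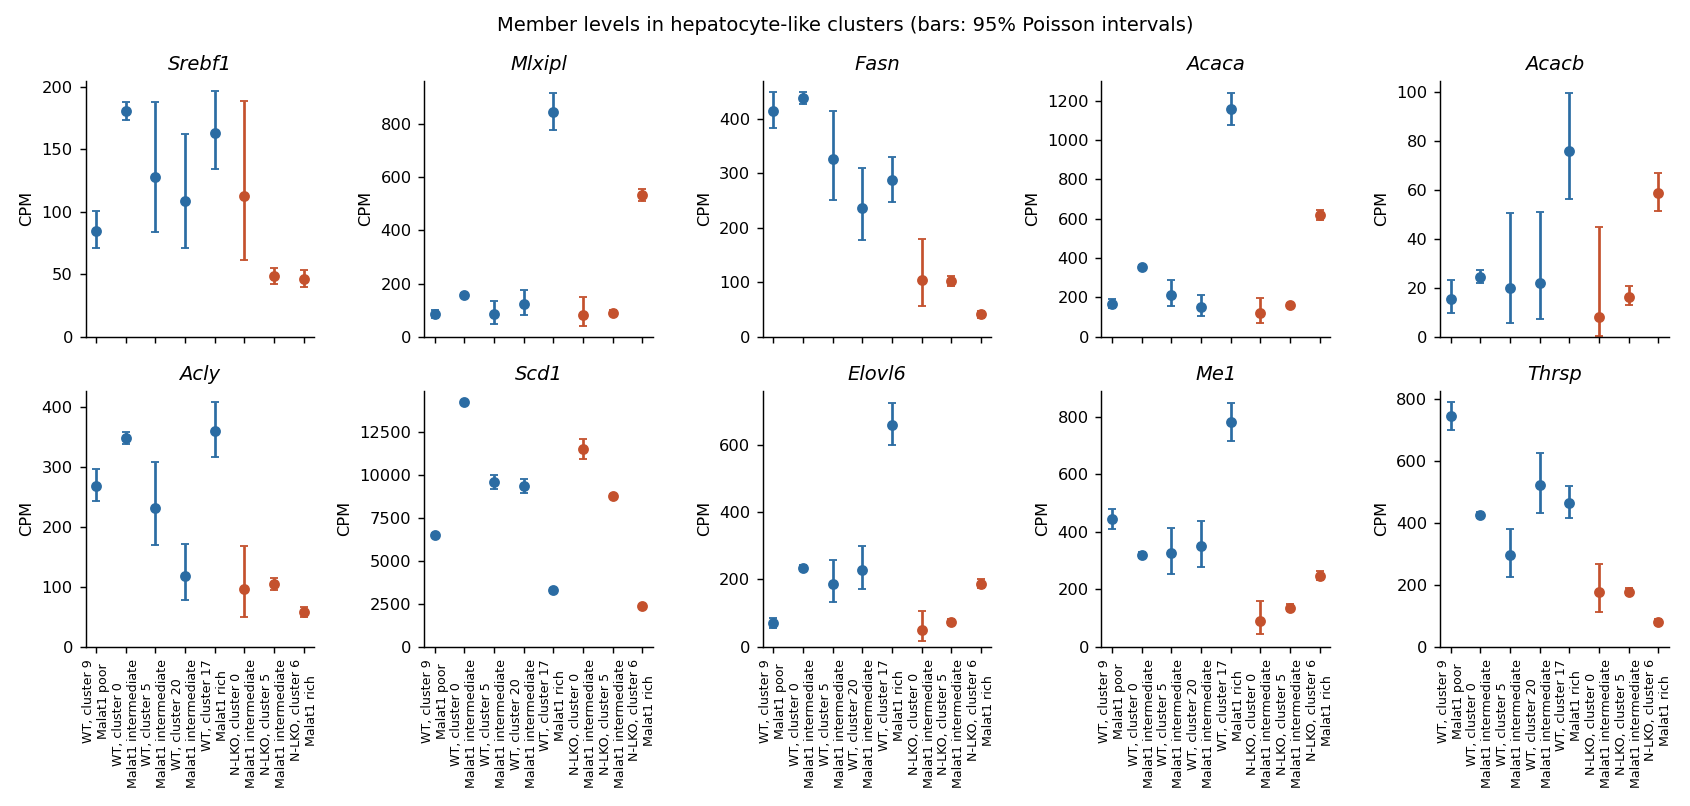
Level of each gene in CPM (y axes, each from 0) in every hepatocyte-like cluster with at least 50 cells of a library (x axes), WT in blue and N-LKO in red, with 95% Poisson intervals. Mlxipl, Acaca, Acacb, Elovl6 and Me1 are highest in the Malat1-rich WT cluster 17, while Fasn, Acly and Thrsp are lower in every N-LKO cluster than in WT clusters 0 and 17.

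Compared within a Malat1 state, the ratios of all 10 genes were below 0, those of Mlxipl and the carboxylases included. Among Malat1-rich cells, 332 in WT and 2065 in N-LKO, 6 genes were at least 2-fold lower, against 11.6% of all genes, and the median log2 ratio was -1.74 against 0.07 for all 11448 genes. Among Malat1-intermediate cells, 8403 in WT and 2064 in N-LKO, 7 genes were at least 2-fold lower, against 3.08% of all genes, and the median was -1.25 against 0.07. The interval lay below 0 for 9 genes in the first state, all but Acacb (16.4% of all genes), and for 10 in the second (18.4% of all genes). The states were drawn after the data were seen, and within each state the WT and N-LKO cells came from different clusters. Nor was Malat1 itself matched within a state. It was at 35531 CPM in WT against 19931 CPM in N-LKO Malat1-rich cells, and at 8677 and 4552 CPM in Malat1-intermediate cells. The part of that difference in the ratios was not tested.

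The direction of Mlxipl turned, as did that of Acacb. The Mlxipl level was 848 CPM in WT against 535 CPM in N-LKO Malat1-rich cells (log2 ratio -0.67, -0.80 to -0.53). In Malat1-intermediate cells it was 155 and 90.2 CPM (log2 ratio -0.78, -0.94 to -0.63). In both libraries it was higher in Malat1-rich than in Malat1-intermediate cells, and the N-LKO pool held the larger share of Malat1-rich cells.

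Srebf1 did not depend on the state in this way. It stood at 163 CPM in WT against 46.3 CPM in N-LKO Malat1-rich cells and at 179 and 50 CPM in Malat1-intermediate cells, with log2 ratios of -1.82 and -1.84.

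Acaca followed Mlxipl. It was at 1155 CPM in WT against 618 CPM in N-LKO Malat1-rich cells (log2 ratio -0.90, -1.02 to -0.78) and at 348 and 159.6 CPM in Malat1-intermediate cells (-1.12, -1.24 to -1.01). Acacb was at 77 and 58.8 CPM in Malat1-rich cells, an interval that included 0 (-0.83 to 0.07), and at 24.2 and 16.2 CPM in Malat1-intermediate cells (-0.97 to -0.22). Acaca was thus level in the pool and lower in N-LKO within both states, and Acacb was higher in the pool and lower in the Malat1-intermediate state.

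Acly and Fasn had low ratios in both states. Acly was at 359.8 CPM in WT against 57.6 CPM in N-LKO Malat1-rich cells, 6.25-fold lower, and at 344 and 104 CPM in Malat1-intermediate cells, 3.32-fold lower. Fasn was at 289 and 41 CPM in Malat1-rich cells, 7.03-fold lower, and at 433 and 103 CPM in Malat1-intermediate cells, 4.21-fold lower. These were the 2 lowest ratios among the 10 genes in Malat1-rich cells.

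Elovl6 and Me1, like the carboxylases, were higher in Malat1-rich cells of either library, so that their pooled ratios were nearer 0 than those within a state. Elovl6 was at 659 CPM in WT against 186 CPM in N-LKO Malat1-rich cells (log2 ratio -1.82) and at 233 and 71.6 CPM in Malat1-intermediate cells (-1.70). Me1 was at 782 and 246 CPM (-1.67) and at 319 and 134 CPM (-1.25).

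Scd1 showed the opposite arrangement. It was at 3275 CPM in WT against 2359.6 CPM in N-LKO Malat1-rich cells, a log2 ratio of -0.47 (-0.54 to -0.41), and at 14065 and 8854 CPM in Malat1-intermediate cells (log2 ratio -0.67, -0.68 to -0.65). The 2.22-fold difference of the pool was 1.39-fold and 1.59-fold within the states. Thrsp was at 465 and 79.8 CPM in Malat1-rich cells, 5.82-fold lower, and at 425 and 178 CPM in Malat1-intermediate cells, 2.39-fold lower.

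The Malat1-poor cells of cluster 9, nearly all WT, had the highest Thrsp level of any hepatocyte-like cluster, 744 CPM (700.4 to 789), and 443 CPM of Me1. Their Srebf1 (85 CPM), Mlxipl (85 CPM) and Elovl6 (68.8 CPM) were below those of WT cluster 0 (181, 157 and 234 CPM), while Fasn (415 CPM) was close to it (438 CPM).

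**Figure D2:**
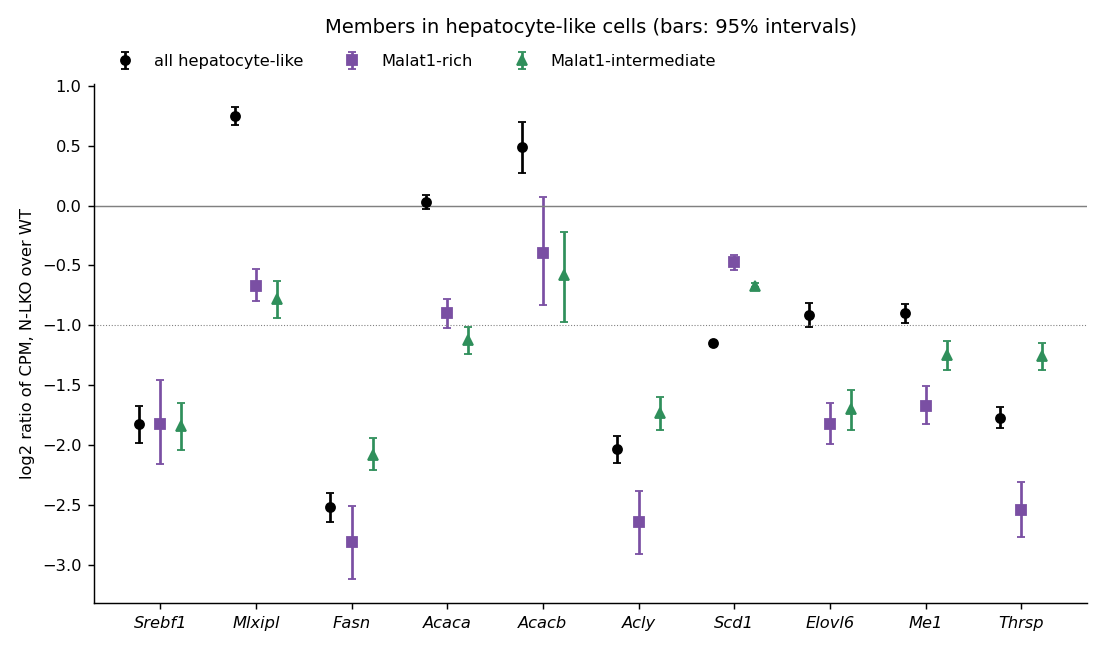
Log2 ratio of CPM, N-LKO over WT (y axis), for each gene (x axis) over all hepatocyte-like cells and within the Malat1-rich and Malat1-intermediate states, with 95% counting intervals. Within the states every point lies below 0, with only the interval of Acacb in Malat1-rich cells reaching it, whereas Mlxipl (0.75) and Acacb (0.49) lie above 0 in the pool.

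The same comparison inside a single cluster had few cells on one side. In cluster 0, with 68 N-LKO cells, intervals lay below 0 for 8 genes (2.75% of all genes), and those of Srebf1 (-1.56 to 0.06) and Acacb (-6.91 to 0.89) included 0. In cluster 5, with 104 WT cells, intervals lay below 0 for 7 genes (6.90% of all genes), and those of Mlxipl (-0.59 to 0.90), Acaca (-0.84 to 0.08) and Acacb (-1.68 to 1.65) included 0. Fasn was at 438 and 104 CPM in cluster 0 and at 326 and 102 CPM in cluster 5. Fasn, Acly, Elovl6, Scd1, Me1 and Thrsp were lower in N-LKO in both clusters, with intervals below 0. The cells of cluster 5 held more of the acute-phase gene Saa1 than those of cluster 0 in either library, at 1075 against 67.9 CPM in WT and 781 against 201 CPM in N-LKO. Spp1 (osteopontin) was at 197 against 23.2 CPM in WT and 497 against 129 CPM in N-LKO.

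Other measures moved with these results, and their part in them was not tested. The 12 hepatocyte markers summed to 63979 CPM in WT against 45113 CPM in N-LKO hepatocyte-like cells. In Malat1-rich cells 12 of 12 were lower in N-LKO, with a median log2 ratio of -0.83, while in Malat1-intermediate cells 5 of 12 were lower and the median was 0.17. The mitochondrial share was 19.7% in WT and 15% in N-LKO. It was 7.71% and 14.1% in Malat1-rich cells, and 20.7% and 15.9% in Malat1-intermediate cells. Within hepatocyte-like cells, the 9 macrophage markers summed to 101 CPM in WT against 268 CPM in N-LKO, the 8 cholangiocyte markers to 90.1 and 185 CPM, and the 5 cycling markers to 15.6 and 54.6 CPM, with none of these markers at 0 in either library. The 10 endothelial markers summed to 328 and 233 CPM and the 9 Kupffer markers to 359 and 389 CPM. Ratios over all genes also grew with the length of the gene. From the fifth of genes with the shortest spans to that with the longest, the median log2 ratio was -0.08, 0.13, 0.35, 0.64 and 0.95. Thrsp lay in the first of these, Fasn and Scd1 in the second, Srebf1 in the third, Mlxipl and Acly in the fourth, and Acaca, Acacb, Elovl6 and Me1 in the longest.

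Lipogenic transcripts were also counted in cells that should hold few of them. In both libraries all 10 genes were highest in hepatocyte-like cells among the 12 named classes. The interval was clear of the next class for 4 genes in WT and 7 in N-LKO. No share of all genes stands beside these counts, so they are not shown to be particular to the 10. Thrsp, for example, was at 455 CPM in WT hepatocyte-like cells and 434 CPM (297 to 612) in WT erythroid-like cells. After each cell was thinned to 1000 UMIs, a Thrsp UMI was present in 36.1% (35.2 to 37.1) of WT hepatocyte-like cells and in 25.6% (23.1 to 28.2) of WT T/NK-like cells, which should lack it. In N-LKO these shares were 10.6% (9.65 to 11.5) and 3.94% (3.12 to 4.91). The unthinned shares were 50.3% and 30.3% in WT, where the median depths were 1519 and 1189 UMIs, and 19% and 5.91% in N-LKO, with 1784 and 1348 UMIs. In WT T/NK-like cells Thrsp was at 311 CPM (284 to 339.7), against 234 CPM from the estimate of free RNA described next, and in N-LKO at 40.7 CPM (33.7 to 48.6) against 35.7 CPM. Free RNA was read from barcodes under 500 UMIs, 18526 in WT and 13674 in N-LKO. The matrices held no barcode under 326 UMIs in WT or 377 in N-LKO, and whether those used were empty droplets was not tested. Free RNA so read was itself lower in N-LKO for 9 of the 10 genes, a count without a share of all genes beside it. Its log2 ratio was -2.88 for Fasn, -2.68 for Thrsp, -2.29 for Acly, -2.03 for Me1 and -1.52 for Srebf1. It was -0.94 for Elovl6, -0.36 for Acaca, -0.31 for Acacb (-0.71 to 0.08, the only interval to include 0), -0.26 for Scd1 and 0.20 for Mlxipl. If every UMI of a nonparenchymal or biliary marker is taken as free RNA, such RNA could account for 91.6% of the UMIs of WT hepatocyte-like cells and 52.2% of those of N-LKO. The level that this estimate gives was exceeded by 9 genes in WT hepatocyte-like cells, all but Thrsp, and by 10 in N-LKO, again without a share of all genes. The margin was narrow in WT for Me1 and Fasn. The counted level was 1.2 times the estimate for Me1, 1.24 times for Fasn and up to 3.19 times for Elovl6. In N-LKO it was 4.62 times for Me1 and 2.8 times for Fasn, within a range from 1.94 (Scd1) to 6.26 (Acaca).

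Across the 9 other classes with at least 100 cells in each library, 5 genes had an interval below 0 in every class, against 3.19% of the 9455 genes that passed the filter in all 9 classes, as the 10 did. These were Fasn (log2 ratios from -3.11 to -1.94), Thrsp (-3.42 to -2.28), Me1 (-2.13 to -0.95), Acly (-1.65 to -1.17) and Scd1 (-0.79 to -0.07). Srebf1 was below 0 in 5 classes and Elovl6 in 3. Hepatocyte marker levels were lower in N-LKO in these classes as well, for example 24789 and 15018 CPM in endothelial-like cells, and the part of free hepatocyte RNA in the ratios was not tested.

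Mlxipl was higher in N-LKO in several classes outside hepatocyte-like cells. Its interval lay above 0 in 5 of the 9 classes and below 0 in 0. In endothelial-like cells it was at 55.8 CPM in WT against 180.2 CPM in N-LKO (log2 ratio 1.69, 1.42 to 1.97). In hepatic stellate-like cells it was at 30.7 and 87 CPM (log2 ratio 1.49). The carboxylases were higher in some of the same classes. Acaca was at 114 and 214 CPM in endothelial-like cells and at 98 and 153 CPM in hepatic stellate-like cells, and Acacb was at 10.9 and 27.1 CPM in endothelial-like cells. In endothelial-like cells 6 of the 10 genes had an interval below 0 and 3 above it (20.6% and 26.9% of all genes), and in hepatic stellate-like cells 5 and 2 (18.7% and 15.2%). In macrophage-like cells the counts were 7 and 1 (22.5% and 15.5%), and in T/NK-like cells 6 and 2 (18.1% and 23.8%). Malat1 was at 9264 CPM in WT against 12759 CPM in N-LKO endothelial-like cells.

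**Figure D3:**
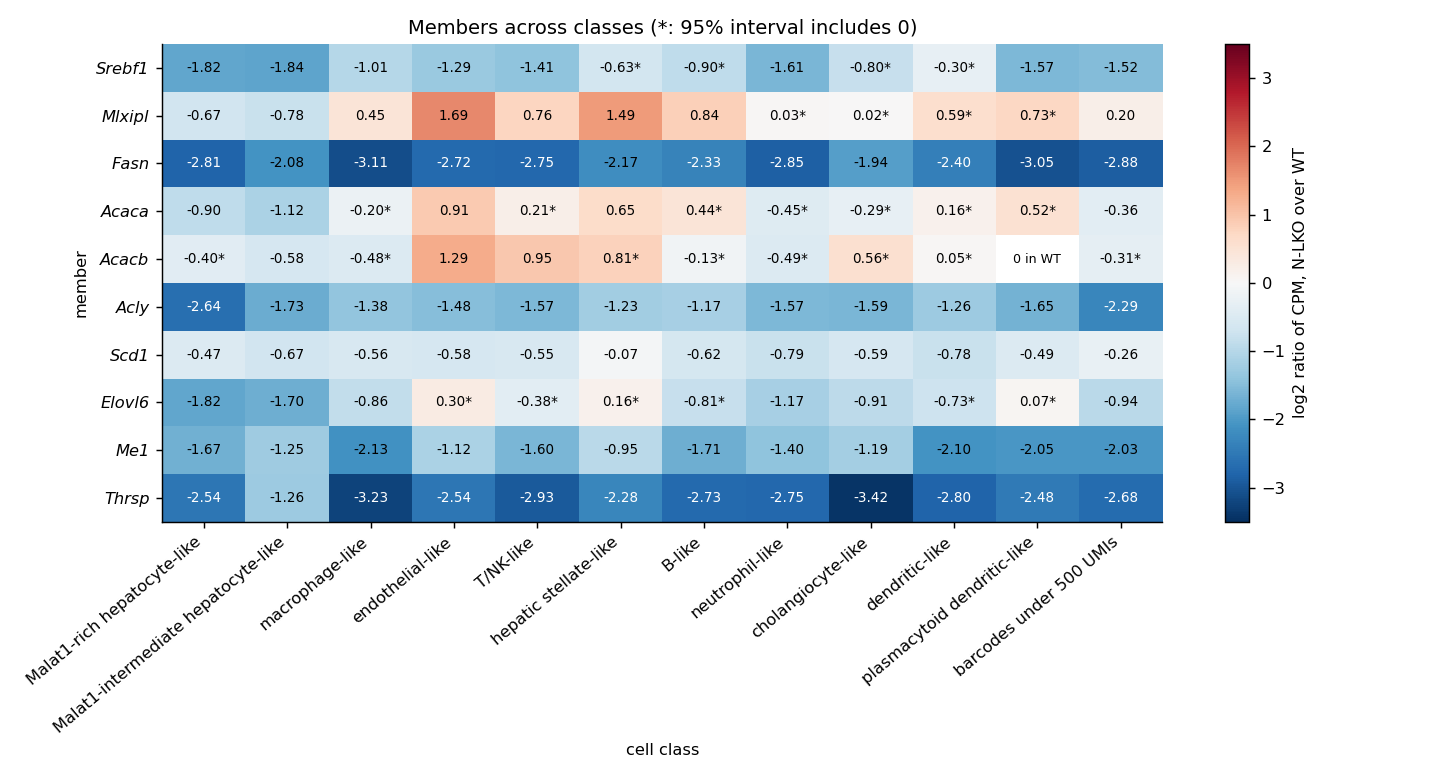
Log2 ratio of CPM, N-LKO over WT, for each gene (rows) in the Malat1-rich and Malat1-intermediate hepatocyte-like cells, in each of the 9 other cell classes and in barcodes under 500 UMIs (columns), blue lower and red higher in N-LKO, with a star where the 95% interval includes 0. Fasn, Acly, Scd1, Me1 and Thrsp are blue in every column, while Mlxipl is below 0 in both hepatocyte-like states (0.75 in the pool, which is not drawn) and reaches 1.69 in endothelial-like cells. Acacb had 0 UMIs in WT plasmacytoid dendritic-like cells and has no ratio there.

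Position in the liver lobule was examined in Malat1-intermediate cells, cut within each library into 3 zones of equal cell number by the share of pericentral among pericentral and periportal marker UMIs. The zones are ranges and not types, and 33.4% of WT and 29.9% of N-LKO cells lay within 0.05 of a cut in that share. The cut used 8290 WT and 1782 N-LKO cells with at least 5 such UMIs. In WT, Srebf1 and Acly were higher toward the portal side, at 208 and 385 CPM in the periportal zone and 148 and 289.5 CPM in the pericentral zone. Me1 and Thrsp were higher toward the central vein, at 282 and 392 CPM against 364 and 466 CPM. Fasn did not differ beyond its interval in WT, with a log2 ratio of pericentral over periportal of -0.06 (-0.15 to 0.03).

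In N-LKO, Fasn, Scd1, Me1 and Thrsp were higher in the pericentral than in the periportal zone. Fasn was at 88.6 CPM in the periportal, 86.6 CPM in the middle and 141 CPM in the pericentral zone (log2 ratio 0.67, 0.33 to 1.01). Scd1 was at 7994 and 10452 CPM in the outer zones, a ratio of 0.39 (0.35 to 0.42), whereas in WT the ratio was -0.08 (-0.09 to -0.06). Thrsp was at 146 and 245 CPM, a ratio of 0.74 (0.49 to 1.00), against 0.25 (0.16 to 0.34) in WT. Me1 was at 118 and 165 CPM, a ratio of 0.48 (0.18 to 0.78), against 0.37 (0.27 to 0.47) in WT. Acly kept a portal bias, with a ratio of -0.51 (-0.85 to -0.17). In every zone each gene of the set was lower in N-LKO than in WT, though the intervals of Acacb overlapped in the middle and pericentral zones. No share of all genes stands beside this. The zones were not matched between the libraries. Glul, a pericentral gene, was at 1418 CPM in WT against 531 CPM in N-LKO in the pericentral zone, and Cyp2f2, a periportal gene, was at 1165 against 595 CPM in the periportal zone.

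**Figure D4:**
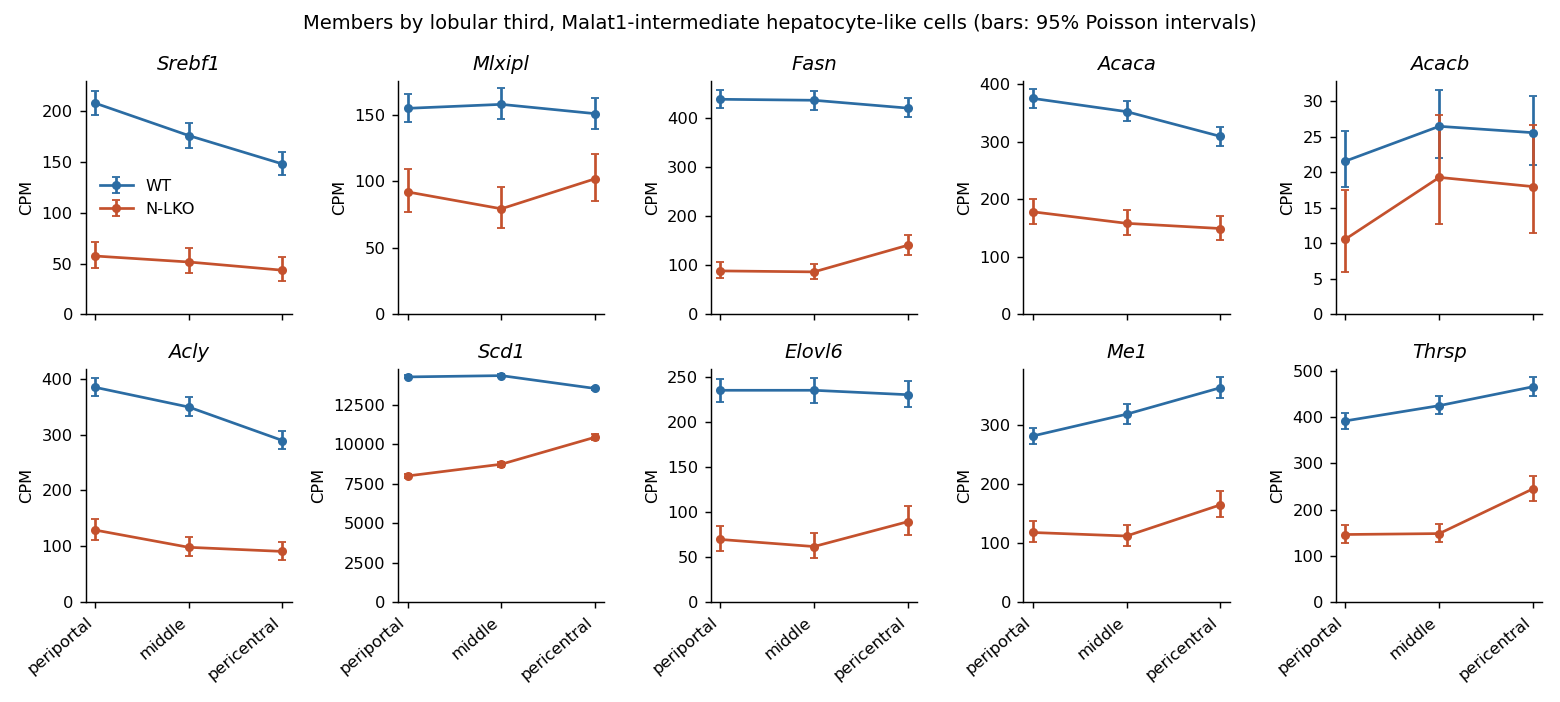
Level of each gene in CPM (y axes, each from 0) in the periportal, middle and pericentral zones of Malat1-intermediate hepatocyte-like cells, WT in blue and N-LKO in red, with 95% Poisson intervals. The red Fasn, Scd1 and Thrsp points lie highest in the pericentral zone, at 141, 10452 and 245 CPM, and stay below the blue points throughout.

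Genes around the pathway were described from lists over all hepatocyte-like cells, beside the shares for all genes given above (2.41% at least 2-fold lower, 21.9% higher, median 0.39). For each list the genes with the highest and the lowest ratio are named, where they are reported here. Of 15 genes that supply carbon, 2 were at least 2-fold lower and 0 higher, with a median log2 ratio of -0.45. Slc25a1, the mitochondrial citrate carrier, was lowest at -1.11 (146 and 67.6 CPM), with -1.09 and -0.49 in the Malat1-rich and Malat1-intermediate states. Of 8 NADPH genes, 5 passed the filter with 0 at least 2-fold higher or lower and a median of -0.04, from Idh1 (-0.90) to Pgd (0.10).

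Genes of elongation and desaturation spread widely. Of 12, 3 were at least 2-fold lower and 1 higher. Elovl3, an elongase of very long chain fatty acids, was at 214 CPM in WT against 29.4 CPM in N-LKO (log2 ratio -2.86), and Scd2, the desaturase related to Scd1, was at 7.44 and 34.6 CPM (2.21). Both kept their direction in each Malat1 state. Among 9 genes of acyl-CoA handling, 1 was at least 2-fold lower and 1 higher, and the median was -0.33. Mid1ip1, which encodes a partner of Spot 14, was at 97.7 and 19.6 CPM (-2.31), and Acbd3 had the highest ratio, 1.04.

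The regulators of SREBP-1c gave a median of 0.39 over 16 genes, with 1 at least 2-fold lower and 1 higher, and medians of -0.12 and -0.08 in the Malat1-rich and Malat1-intermediate states. Insig1, which retains SREBPs in the endoplasmic reticulum and is itself an SREBP target, was at 263 CPM in WT against 61.2 CPM in N-LKO (-2.10), with -2.01 and -1.91 in those states. Mtor was at 18.3 and 39.6 CPM (1.12), with 0.19 and 0.26 within the states. Of 4 genes tied to ChREBP, 1 was at least 2-fold lower and 1 higher, with a median of -0.56. G6pc, glucose-6-phosphatase and a ChREBP target, was at 734 and 315 CPM (-1.22), and Txnip, another target, was at 28.7 and 60.9 CPM (1.08).

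Over 24 points, 12 classes in each of 2 libraries, the genes outside the pathway whose log2(CPM + 1) followed the mean of the 10 genes most closely were Chpt1 and Cyp2e1 (Pearson r 0.97 each), then Serpina1b and Alb (0.96 each). The points share their libraries and their free RNA. Among the 10 genes themselves, r with that mean ranged from 0.06 for Acacb and 0.43 for Mlxipl to 0.95 for Scd1.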

How the data were processed

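Each of the 2 libraries was deposited as a matrix of raw UMI counts, whole numbers that the authors made with Cell Ranger (7.1.0 in the file headers) from 3′ tags. The submitters' processing notes also name Seurat and mm9, yet 99.8% of the 32285 gene identifiers are in GENCODE M21, so the build is not settled and coordinates are those of GRCm38. Whether reads in introns were counted is not given in the sources used here. No authors' cell annotation was used.

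Filters required 1000 UMIs and 400 genes per barcode and allowed 30% mitochondrial UMIs. Barcodes with a Scrublet score of at least 0.25 were removed (8.56% in WT, 10.6% in N-LKO). Counts were scaled to 10000 per cell, and 2000 variable genes, 30 components, 20 neighbors and Leiden clustering at a resolution of 0.3 were used (scanpy 1.11.5, leidenalg 0.10.2). Clusters took the name of the best of 15 cell type marker lists at a score of at least 0.1 with at least 3 markers raised, and were mixed when a second type exceeded 0.6 of that score. These scores, the doublet score and the Malat1 factor of 2 were set after the data were seen, and the marker and gene lists were chosen with earlier results of these data known, as were the 10 genes. Classes rebuilt in this way may differ from the study's.

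UMIs were summed per class and library and scaled to CPM. Log2 ratios used 0.5 added UMI, and genes needed at least 5 CPM in at least 1 library. Intervals were exact (Poisson, Clopper-Pearson for shares, conditional binomial for ratios). The genes named are the 10, the highest and lowest ratio of each pathway list, and the 5 most like the mean pattern. Under this rule 2 genes are not reported here. The ratio code was tested on simulated data. No p-values were computed.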

Additional observations from a re-analysis of the deposited data

Results flagged for a closer look

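The N-LKO to WT ratio of 3 genes had 1 sign in hepatocyte-like cells within a Malat1 state and the opposite sign in other classes, each with an interval that excluded 0. With 1 library per group the difference was not tested. The other classes were not split by Malat1, so the comparison is of unlike sets. In the unsplit hepatocyte-like pool the log2 ratio was 0.75 for Mlxipl, 0.49 for Acacb and 0.03 for Acaca, whose interval included 0. There the sign was not opposite to that in those classes. For Mlxipl, the log2 ratio was -0.67 in Malat1-rich and -0.78 in Malat1-intermediate hepatocyte-like cells, against 1.69 in endothelial-like, 1.49 in hepatic stellate-like, 0.84 in B-like, 0.76 in T/NK-like and 0.45 in macrophage-like cells. For Acaca, it was -0.90 and -1.12 in those hepatocyte-like states, against 0.91 in endothelial-like and 0.65 in hepatic stellate-like cells. For Acacb, it was -0.58 in Malat1-intermediate hepatocyte-like cells, against 1.29 in endothelial-like and 0.95 in T/NK-like cells. The ratio of free RNA was 0.20 for Mlxipl, -0.36 for Acaca and -0.31 for Acacb.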

How the results depend on the processing

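Of 20 alternatives, 5 were chosen after seeing the data. Over 179 values for single genes, 153 were lower in N-LKO, and Srebf1, Fasn, Acly, Elovl6 and Thrsp were lower under every alternative that gave them a value. All come from the same 2 libraries and are not independent, so the tally describes sensitivity to settings only. The median log2 ratio of the 10 genes was -1.31 with a minimum of 2000 UMIs, -1.44 with 750, -1.82 with a mitochondrial limit of 10% (9 genes 2-fold lower, from 751 WT and 234 N-LKO cells), -1.25 with cells assigned by their own markers, -1.93 with free RNA subtracted, -1.42 when centered on all genes, -1.74 and -1.25 in the Malat1-rich and Malat1-intermediate states, -1.37 and -0.96 in clusters 0 and 5 alone, and -1.36 with a cluster score of at least 0.2, which left out cluster 6. In the same settings Mlxipl turned to -0.98, -0.84, -2.30, -0.44, -0.67, -0.78, -0.89 and -0.95, without a turn under subtraction, centering or in cluster 5. Acacb turned to -0.45, -0.59, -1.25, -0.47, -0.40, -0.58, -1.02, -0.43 and -0.65. Scd1 turned to 0.48 at the 10% limit and Me1 to 0.02 with free RNA subtracted, which left no value for Thrsp. The causes were not tested. Leaving out clusters over 3 times the median Malat1 level or under that level divided by 3 removed clusters 17 and 9, kept cluster 6 (3 times after rounding) and gave 0.94 for Mlxipl. Depth limited Acacb and the single-cluster comparisons. No paired analysis was possible because each group had 1 library, and no replicate could be left out.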

Other observations

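Neighboring lists outside lipogenesis did not move together. Of 11 genes of triglyceride assembly, 10 passed the filter. In hepatocyte-like cells 4 were at least 2-fold higher and 0 lower in N-LKO, against 21.9% and 2.41% of all genes. The median log2 ratio was 0.02, against 0.39 for all genes. Lpin3, a phosphatidate phosphatase counted among the 4, was at 0.655 CPM in WT (11 UMIs) and 5.46 CPM in N-LKO (47 UMIs). It passed the filter through N-LKO alone, so its place among them is no evidence of a rise. Agpat2, an acyltransferase, was at 156 and 82.7 CPM. The median of the list was -0.54 in the Malat1-rich and -0.29 in the Malat1-intermediate state. Of 6 AMPK subunits, Prkab2 had the highest ratio (1.09) and Prkab1 the lowest (-0.56). Prkab2 was at 2.5 CPM in WT (42 UMIs) and 5.34 CPM in N-LKO (46 UMIs), and it too passed the filter through N-LKO alone.

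Of 8 LXR targets outside lipogenesis, 1 was at least 2-fold higher and 1 lower (21.9% and 2.41% of all genes), with a median of 0.29. In the Malat1-rich and Malat1-intermediate states the median was 0.24 and -0.19. Abcg8, which exports sterols into bile, was at 129 and 52.7 CPM, with log2 ratios of -3.07 and -1.52 within those states. Abcg1, a cholesterol exporter prominent in macrophages, was at 9.17 and 22.5 CPM, with 5.52 and 0.40 within the states. Macrophage markers also differed in hepatocyte-like cells (101 and 268 CPM), and their part in the Abcg1 values was not tested.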
